A study of Mus musculus with 24 samples.

Results

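Splicing factor genes were examined by symbol: every array probe annotated to an Srsf, Hnrnp, Sf3a, Sf3b, Snrp, Rbfox, Celf or Nova gene was taken, whatever its values. The rule gave 103 probes for 55 genes, of 16593 genes with a symbol on the array. The families held 9 Srsf genes on 16 probes, 18 Hnrnp genes on 41 probes, 9 Sf3a and Sf3b genes on 11 probes, 11 Snrp genes on 16 probes, 3 Rbfox genes on 7 probes, 4 Celf genes on 9 probes and 1 Nova gene, Nova2, on 3 probes. An intron is removed by the spliceosome, whose small nuclear ribonucleoproteins (snRNPs) recognise the splice sites and the branch point; the Snrp genes encode snRNP proteins, and the Sf3a and Sf3b genes encode the parts of the U2 snRNP that contact the branch region. SR proteins (Srsf) and hnRNP proteins (Hnrnp) bind exons and introns in most cells and shift the choice of splice sites. The Rbfox, Celf and Nova proteins bind short RNA motifs and are best known for tissue-specific splicing, in brain and muscle in particular.

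The arrays were Illumina MouseRef-8 bead arrays, hybridised with RNA of brain, spleen or testis from male mice on a mixed C57BL/6J-129ola-Fvb background. Each tissue had 4 mice labelled SMC6 mutant, for the gene of a subunit of the SMC5/6 complex of DNA repair, and 4 mice labelled wildtype, with 1 mouse per array and 24 arrays in all. Testis and spleen were taken from the same 8 mice at 12 weeks of age, and brain from 8 other mice at 19 weeks, so that tissue, age and animals cannot be told apart where brain is compared with the others. In testis and spleen the mouse identifiers read +/+ for control replicates 1 and 2 and +/- for control replicates 3 and 4, although the genotype label is the same, and -/- for the mutants; the brain identifiers carry no genotype. The groups were kept as labelled. The kind of mutation is not given in the sources used here.

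Between 12049 and 14234 of the 25697 probes were detected on an array, detected meaning a detection p under 0.05. Arrays differed in brightness: the upper quartile of the intensities was 65.3 ± 7.59 (SD, n = 4) in control spleen, 98.1 ± 11.8 in control testis and 177 ± 8.27 in control brain, and 152 ± 7.24 in mutant brain. The labelled tissues carried their markers: 14 of the 15 germ cell genes on the array were detected on all testis arrays, 9 of 10 lymphoid genes on all spleen arrays, and 8 of 10 neuronal and 9 of 9 glial genes on all brain arrays. Pancreatic transcripts were high in mutant spleen replicates 1 and 2, where the median level of 17 pancreatic genes was 9.72 and 8.59 on the log2 scale of spleen, against 4.38 to 4.50 in the control spleens, and it was 6.74 in mutant testis replicate 1. The Smc6 probe itself differed between mutant and control by -0.04 (SE 0.10) in testis, 0.19 (SE 0.16) in spleen and -0.03 (SE 0.09) in brain, with adjusted p of 1.00, 1.00 and 0.931 (limma), so that the level of the transcript does not check the labels.

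Levels are given below as log2 of the background-corrected and quantile-normalized intensity, compared only within a probe, and errors are SD over 4 mice for levels and standard errors (SE) for differences. Of the 103 probes, 59 were detected on all 24 arrays and 14 on none. Between tissues 84 probes of 49 genes were tested. A probe was called between 2 tissues when the adjusted p was under 0.05 in limma's fit over all probes tested and the difference was at least 2-fold.

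The largest tissue differences of the set belonged to genes known from neurons. Rbfox1 and Rbfox3, Celf4, Snrpn and Srsf12 were called higher in control brain than in both control testis and control spleen, as was 1 of 2 tested Rbfox2 probes. These were 8 probes, or 9.52% of the 84, against 14.5% of all 17735 probes tested with that pattern, so that being brain-high was no more frequent here than on the array as a whole. The probes of Srsf12, Rbfox2 (ILMN_1222770) and Celf4 (ILMN_2638850) reached the 4 detected arrays needed for testing only through brain. For them the filter itself favoured this pattern, and the same filter applied to all probes. All 8 kept the pattern when the arrays were scaled by their medians and in the normalized table deposited by the authors.

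Rbfox1 encodes a neuronal and muscle splicing regulator that binds UGCAUG in introns. On its probe ILMN_1238309 the control brains measured 12.24, 12.08, 12.19 and 12.13, the control testes 4.38, 4.30, 4.26 and 4.35 and the control spleens 5.80, 5.04, 5.30 and 5.53. Every brain lay far above every other sample, and no testis array detected the probe. The brain level was at least 167-fold the testis level, a bound set by the dimmest detected signals, and differed from spleen by 6.74 (SE 0.14) with an adjusted p of 3.10e-23. Spleen was above testis, where the bound was at least 1.56-fold.

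Rbfox3 encodes the antigen known as NeuN, used to mark neurons. Its probe ILMN_3110132 read 11.95, 12.06, 12.12 and 12.26 in control brain, 4.43, 4.59, 4.56 and 4.87 in control testis and 5.61, 5.17, 5.73 and 5.74 in control spleen. The groups did not overlap, and the difference from testis, where 1 of 4 control arrays detected the probe, was 7.49 (SE 0.13). The difference from spleen was 6.53 (SE 0.13). In spleen, where all 4 control arrays detected both Rbfox1 and Rbfox3, the summed linear level of 10 neuronal marker genes was 1820 to 2397, against 40581 to 41508 in control brain and 424 to 464 in control testis. Of these 10 genes, 5 were detected on every control spleen array and 4 on none. The spleen sum thus rests on few genes and is no measure of neurons. The part of other cells in the low spleen levels of Rbfox1 and Rbfox3 was not tested. In tissue RNA fewer cells of a type and less RNA per cell cannot be told apart.

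Rbfox2, the most widely expressed member of the family, was read by 2 tested probes. ILMN_2670527 gave 6.61 ± 0.16 in brain, 6.09 ± 0.19 in testis and 4.53 ± 0.24 in spleen, so that spleen was called below both. ILMN_1222770 gave 5.85 ± 0.12, 4.63 ± 0.19 and 4.58 ± 0.23, with brain above both. Brain exceeded testis by 0.51 (SE 0.13) on the first probe and by 1.22 (SE 0.13) on the second. The second probe was detected in 1 of 4 control testes and in no control spleen, so that testis and spleen are not compared on it, and the first in 1 of 4 control spleens. Brain over spleen on the second probe was at least 1.96-fold.

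Celf4, a CUG-binding family member of neurons, was measured by 2 probes. ILMN_1243635 read 9.82, 9.66, 10.01 and 9.69 in control brain, 5.04, 5.07, 4.55 and 4.82 in control testis and 4.93, 4.55, 4.73 and 4.96 in control spleen. Brain exceeded testis by 4.92 (SE 0.14) and spleen by 5.00 (SE 0.14). The other probe, ILMN_2638850, was detected in 1 of 4 control testes and in no control spleen; it differed by 3.92 (SE 0.08) from testis and by at least 12.5-fold from spleen. Celf3 was not detected on enough arrays to be tested.

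Snrpn encodes SmN, a close relative of the Sm core protein SmB that replaces it in brain snRNPs, and is an imprinted gene expressed from the paternal allele. Its probe ILMN_1247894 measured 13.55, 13.49, 13.52 and 13.60 in control brain, 8.63, 8.54, 8.36 and 8.57 in control testis and 7.38, 7.29, 7.26 and 6.75 in control spleen. All 3 groups were apart: brain over testis by 5.02 (SE 0.11), brain over spleen by 6.37 (SE 0.11) and testis over spleen by 1.35 (SE 0.11), with adjusted p of 1.56e-23, 3.84e-25 and 1.20e-11. The second probe, ILMN_2748091, gave a brain difference of 4.72 (SE 0.10) from testis and at least 27.1-fold from spleen. For Snrpb, the gene for SmB itself, the probes ILMN_1239922 and ILMN_1223667 were lower in brain than in spleen by differences of -1.46 (SE 0.09) and -1.74 (SE 0.15). Against testis they gave -0.08 (SE 0.09) and -0.49 (SE 0.15), neither called. Under median scaling the spleen differences were -0.76 and -1.002, of the same direction.

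Srsf12 encodes an SR-related protein that counteracts other SR proteins. The probe ILMN_2953888 read 6.35, 6.08, 6.07 and 6.26 in control brain, 4.52, 4.80, 4.35 and 4.51 in control testis and 4.40, 4.62, 4.54 and 4.70 in control spleen. It was detected in all brains, in 1 of 4 control testes and in no control spleen. The difference from testis was 1.64 (SE 0.12) and the fold over spleen at least 2.48. Nova2, a neuronal splicing regulator, was read by 1 tested probe, ILMN_3044523, at 5.58 ± 0.13 in brain, 5.20 ± 0.20 in testis and 5.12 ± 0.26 in spleen, and was called in no tissue comparison.

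The promoters of 2 genes of the brain-high group are shown because their base composition differs. They are the RefSeq windows from 250 bases before to 50 after the start, in GRCm38.p6. Capitals mark, on either strand, the letters GGGCGG, known as the GC box, and CCAAT. They also mark TATAAA, the TATA box, and the letters CCGGAAG, the core of many ETS sites. None of these motifs contains another.
Srsf12, chr4:33209022-33209321, plus strand: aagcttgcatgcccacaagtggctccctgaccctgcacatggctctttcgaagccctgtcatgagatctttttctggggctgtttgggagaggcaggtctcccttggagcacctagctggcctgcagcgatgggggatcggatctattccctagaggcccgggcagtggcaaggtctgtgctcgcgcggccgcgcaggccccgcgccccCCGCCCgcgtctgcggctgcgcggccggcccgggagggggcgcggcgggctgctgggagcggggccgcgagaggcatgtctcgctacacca
Rbfox3, chr11:118760992-118761291, minus strand: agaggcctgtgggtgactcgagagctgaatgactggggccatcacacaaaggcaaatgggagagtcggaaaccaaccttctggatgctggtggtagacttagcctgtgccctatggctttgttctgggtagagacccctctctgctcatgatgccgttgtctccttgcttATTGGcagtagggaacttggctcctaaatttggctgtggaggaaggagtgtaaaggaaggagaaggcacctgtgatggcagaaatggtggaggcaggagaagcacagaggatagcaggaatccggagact
The Srsf12 window was 69% G or C with 26 CpG dinucleotides and 1 GC box. The Rbfox3 window was 53% G or C with 4 CpG dinucleotides, and held 1 CCAAT match.

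**Figure D1:**
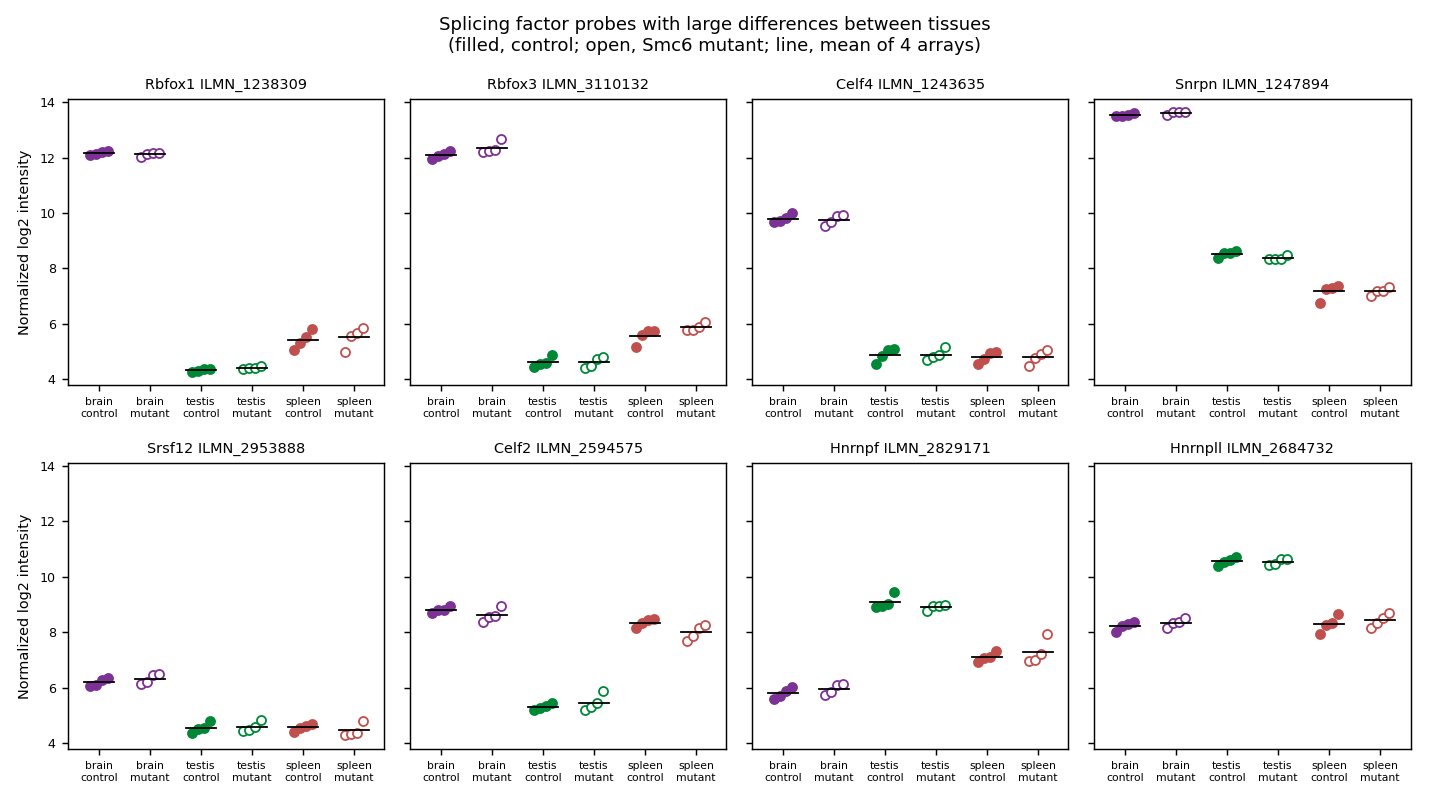
Normalized log2 intensity (y axis) of 8 probes on all 24 arrays, by tissue and genotype (x axis), with 1 point per mouse, filled for control and open for mutant, and a line at the mean of 4. Rbfox1, Rbfox3, Celf4, Snrpn and Srsf12 sit highest in brain, Celf2 lowest in testis, and Hnrnpf and Hnrnpll highest in testis, with control and mutant points close together in every tissue.

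Celf2, an RNA-binding regulator known from brain, heart and T cells, was low in testis. The probe ILMN_2594575 read 8.94, 8.69, 8.81 and 8.82 in control brain, 8.32, 8.46, 8.17 and 8.42 in control spleen and 5.26, 5.18, 5.42 and 5.34 in control testis. Testis lay below spleen by a difference of -3.04 (SE 0.14), with an adjusted p of 3.07e-16, and brain exceeded testis by 3.51 (SE 0.14). The probe ILMN_1252673 gave -3.11 (SE 0.10) and 2.13 (SE 0.10) for the same comparisons. Between brain and spleen the probes disagreed in sign, at 0.47 and -0.98, and neither was called. Celf1, which is expressed widely, ran opposite in testis: its probes ILMN_2667972 and ILMN_2667971 were higher in testis than in brain, with brain minus testis at -1.23 (SE 0.12) and -1.21 (SE 0.14); under median scaling these were -0.93 and -0.91, under 2-fold.

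Celf2 was accompanied in the testis-low group by Srsf6, an SR protein, by 1 probe of Hnrnpc, a protein that binds U-rich tracts, and by the Sm core genes Snrpd1 (1 of 2 probes) and Snrpd3. With the 2 Celf2 probes these were 6 probes, 7.14% of those tested against 7.82% of all probes. Each probe was counted in 1 group only, and probes counted as brain-high or spleen-high were left out of both shares. Srsf6 read 7.88, 7.66, 7.67 and 7.65 in control testis, 9.23, 9.35, 9.05 and 9.03 in brain and 9.71, 9.95, 9.88 and 9.94 in spleen. Its difference from spleen was -2.15 (SE 0.10) and brain exceeded testis by 1.45 (SE 0.10). Rbfox1 and Hnrnpdl, counted in other groups, also lay below both tissues in testis, Hnrnpdl (ILMN_2690061) with a testis minus spleen difference of -3.19 (SE 0.14). Under median scaling the probes of Srsf6 and Hnrnpc and both Celf2 probes stayed at least 2-fold lower in testis than in both tissues. On 1 of the Celf2 probes brain then also exceeded spleen by at least 2-fold, so that it counted there as brain-high. Snrpd1 and Snrpd3 then differed between testis and spleen by -0.63 and -0.56, under 2-fold.

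Hnrnpf, Hnrnpll, Hnrnpul1, Hnrnph1, Sf3b4, Snrpc and Srsf10 each had 1 probe called higher in testis than in both brain and spleen. These 7 probes were 8.33% of those tested, against 17.4% of all probes. Hnrnp probes were 4 of the 7 and 31 of the 84 tested. All 7 held in the deposited table and 6 under median scaling, the exception being Hnrnph1 with a brain minus testis difference of -0.95 there.

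Hnrnpf encodes a protein that binds runs of G. Its only probe read 8.92, 8.95, 9.44 and 9.00 in control testis, 7.12, 7.05, 7.34 and 6.94 in control spleen and 5.58, 6.01, 5.88 and 5.70 in control brain. The 3 groups did not overlap, and brain minus testis was -3.29 (SE 0.16) with an adjusted p of 1.12e-15. Testis exceeded spleen by 1.97 (SE 0.16). Its relative Hnrnph1 had 5 tested probes, all lower in brain than in testis, by differences from -1.45 to -0.70, of which 4 were called.

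Hnrnpll, known for regulating the splicing of the CD45 gene in lymphocytes, was higher in testis than in spleen on both probes. ILMN_2684732 read 10.55, 10.39, 10.72 and 10.62 in control testis, 7.93, 8.25, 8.32 and 8.64 in control spleen and 8.37, 8.28, 8.22 and 7.99 in control brain. The testis minus spleen difference was 2.29 (SE 0.13) on this probe and 1.22 (SE 0.14) on ILMN_2768850. Snrpc, the U1 snRNP protein that helps pair U1 with the splice site, read 7.69, 7.46, 7.81 and 7.82 in control testis, 6.05, 6.16, 5.99 and 6.15 in brain and 6.40, 6.52, 6.49 and 6.80 in spleen. Snrpc in testis exceeded spleen by 1.14 (SE 0.10), and brain minus testis was -1.61 (SE 0.10).

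Snrpd2, another Sm core gene, was higher in testis than in brain, with brain minus testis at -1.37 (SE 0.08), while Snrpd1 and Snrpd3, whose products assemble into the same ring, were higher in brain at 1.26 (SE 0.12) on 1 Snrpd1 probe and 1.46 (SE 0.11) on the Snrpd3 probe. The other Snrpd1 probe gave 0.87 (SE 0.11). Under median scaling these differences were -1.34 for Snrpd2, 1.45 and 1.07 for Snrpd1 and 1.65 for Snrpd3, with each sign kept.

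Spleen held the largest number of members called higher than in both other tissues, 12 probes or 14.3% of those tested against 13% of all probes. They were the Srsf1 probes (2), Srsf2 (1), Hnrnpa1 (1), Hnrnpab, Hnrnpc (1), Hnrnpdl (1), Hnrnpm (1), Sf3b3, the Snrpb probes (2) and Snrpg, which encode general SR proteins, abundant hnRNPs, a U2 snRNP subunit and Sm core proteins. This group depended on the scaling of the arrays. The direction was the same for all 12 under median scaling, but only Sf3b3 still passed 2-fold against both tissues. In the authors' deposited table there were 6 of the 12 that passed against both.

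Sf3b3, a large scaffold subunit of the SF3b complex, read 10.80, 10.44, 10.62 and 10.60 in control spleen, 8.75, 8.99, 8.74 and 8.86 in control brain and 8.87, 8.60, 8.83 and 8.63 in control testis. Spleen stood alone, with brain minus spleen at -1.78 (SE 0.09) and testis minus spleen at -1.88 (SE 0.09); under median scaling these were -1.05 and -1.41. Brain and testis differed by 0.10 (SE 0.09) (adjusted p = 0.333). Srsf1, the founding SR protein, measured 11.96, 11.98, 12.20 and 12.15 in control spleen, 10.84, 10.78, 10.82 and 10.68 in brain and 10.33, 10.34, 10.47 and 10.35 in testis on ILMN_2591814, a brain minus spleen difference of -1.29 (SE 0.08) that became -0.66 under median scaling.

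Low in brain against both tissues, and in no group above, were 1 probe each of Hnrnpa2b1, an RNA-transport and splicing protein, and Hnrnpk, which binds C-rich RNA. They were 2.38% of those tested against 3.16% of all probes. Probes counted as testis-high or spleen-high were left out of both shares. Hnrnpk ILMN_1245987 read 7.66, 7.98, 7.72 and 7.61 in control brain, 9.20, 9.03, 9.18 and 9.30 in control testis and 9.11, 9.00, 9.61 and 9.00 in control spleen. The brain difference was -1.44 (SE 0.18) from testis and -1.43 (SE 0.18) from spleen. Neither probe passed against both tissues under median scaling, where the spleen differences were -0.71 for Hnrnpk and -0.64 for Hnrnpa2b1. The other tested Hnrnpa2b1 probe, ILMN_2771074, was detected on all 24 arrays and put brain level with testis. It read 5.38 in control brain, 5.47 in control testis and 6.45 in control spleen. Hnrnpf, counted as testis-high, was also low in brain against both tissues, at 5.79 against 9.08 in control testis and 7.11 in control spleen. Under median scaling no Hnrnp probe was at least 2-fold lower in brain than in spleen. Spleen was below both tissues on 1 probe in no other group, of Rbfox2, given above. This was 1.19% against 2.15% of all probes, with probes counted as brain-high or testis-high left out of both shares. Snrpn ILMN_1247894, counted as brain-high, also lay below both tissues in spleen, at 7.17 against 13.54 in control brain and 8.52 in control testis.

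The windows of Sf3b3 and Snrpc are shown as the spleen-high member that kept its call under each scaling and a testis-high member, and both hold the ETS letters.
Sf3b3, chr8:110846754-110847053, minus strand: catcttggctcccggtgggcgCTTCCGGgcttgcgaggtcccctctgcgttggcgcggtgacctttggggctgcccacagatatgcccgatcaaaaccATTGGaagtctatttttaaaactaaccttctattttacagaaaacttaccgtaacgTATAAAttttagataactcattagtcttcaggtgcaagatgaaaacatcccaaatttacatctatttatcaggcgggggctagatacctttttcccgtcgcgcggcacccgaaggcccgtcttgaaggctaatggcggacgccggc
Snrpc, chr17:27839837-27840136, plus strand: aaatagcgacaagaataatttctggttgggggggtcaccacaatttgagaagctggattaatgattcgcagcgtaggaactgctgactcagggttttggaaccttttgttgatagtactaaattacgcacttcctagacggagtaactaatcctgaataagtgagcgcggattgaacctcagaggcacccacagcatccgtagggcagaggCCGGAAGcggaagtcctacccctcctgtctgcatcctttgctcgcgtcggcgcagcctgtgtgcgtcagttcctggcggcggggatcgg
Each had 1 match to CCGGAAG, read as CTTCCGG in Sf3b3, and the Sf3b3 window also had 1 CCAAT and 1 TATAAA match. RefSeq windows were found for 48 of the 55 genes, 75 windows in all, and 24% of them held CCGGAAG on either strand against 8.86% of all 32851 windows. GC boxes were found in 61.3% against 35.7%, CCAAT in 42.7% against 37.4% and TATAAA in 13.3% against 13.6%. No member window held the NRF1 or RE1 motif searched, which 0.971% and 0.0122% of all windows held. The member windows were also richer in G and C, with a median of 60% and 24 CpG dinucleotides against 52.7% and 7. Several windows can belong to 1 gene, and a match describes letters only.

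Counted by family over the control tissues, 17 member probes were called higher and 18 lower in brain than in testis, 41.7% of the 84 against 50% of all probes (26.7% higher, 23.3% lower). Between brain and spleen 9 were higher and 17 lower, 31% against 39% (19.1% higher, 19.9% lower). Between testis and spleen 10 were higher and 25 lower, 41.7% against 48.1% (21.9% higher, 26.3% lower). Splicing factor probes were thus called at shares below those of all probes in each comparison. Under median scaling the splits were 21 higher and 12 lower for brain against testis, 15 higher and 2 lower for brain against spleen, and 18 higher and 13 lower for testis against spleen. The lean towards spleen therefore turned with the scaling, which moved the median of all probes from -0.04 to 0.13 between brain and spleen and that of the member probes from -0.45 to 0.07.

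The families differed in how far they spread. All 4 tested Rbfox probes were called higher in brain than in spleen, and 3 of 4 higher than in testis. Of 31 Hnrnp probes 2 were higher and 11 lower in brain than in testis, and 0 higher and 9 lower than in spleen. Among 10 Sf3a and Sf3b probes 1 was called between brain and testis, 2 between brain and spleen and 3 between testis and spleen, and their differences lay between -2.20 and 2.16. Of 16 Srsf probes 4 were higher and 2 lower in brain than in testis, 1 higher and 3 lower than in spleen, and 1 higher and 6 lower in testis than in spleen. Of 14 Snrp probes the corresponding counts were 4 and 2, 2 and 3, and 2 and 6. Median scaling left the Rbfox counts against brain as they were, but turned several of the others: at least 2-fold higher and lower in brain than in spleen were then 1 and 0 of the Hnrnp probes, 3 and 0 of the Srsf probes and 4 and 1 of the Snrp probes, and 4 Snrp probes were higher and 0 lower in testis than in spleen.

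**Figure D2:**
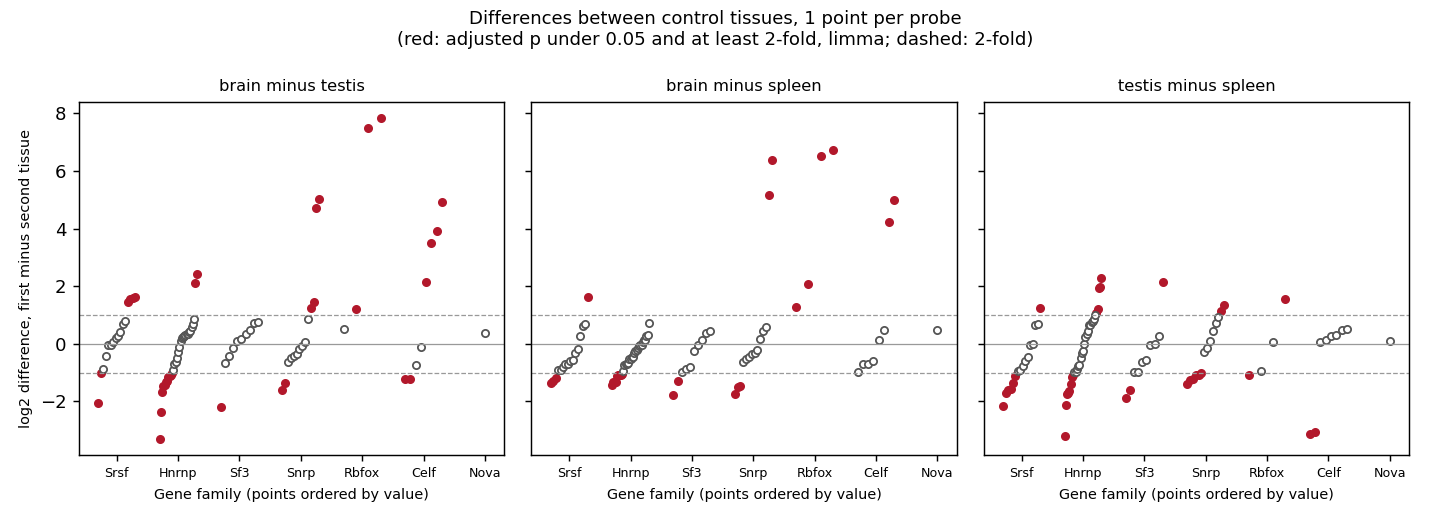
Log2 difference between control tissues (y axis) for each tested member probe, grouped by gene family (x axis) in 3 panels, with red for probes called by limma at an adjusted p under 0.05 and at least 2-fold. Rbfox, Celf and Snrp probes reach differences above 4 in favour of brain, while the Srsf, Hnrnp and Sf3 probes stay between -3.29 and 2.43.

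Probes of the same gene did not always give the same difference. Of 24 genes with at least 2 tested probes, the signs differed for 6 between brain and testis, 10 between brain and spleen and 5 between testis and spleen, but these counts include differences near 0 and probes near background. Counting only probes with an adjusted p under 0.05 (limma) that all 4 control arrays of the higher tissue detected, a criterion chosen after seeing the data, opposite directions remained for 2 genes between brain and testis, Srsf10 and Srsf2. There were 3 between brain and spleen, Celf2, Hnrnpc and Snrpa, and 3 between testis and spleen, Snrpa, Srsf10 and Srsf5. For 11, 6 and 10 genes the probes were over 1 log2 unit apart. Where the probes lie in the transcripts is not given in the sources used here, so isoforms were not assigned.

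Srsf10, whose product represses splicing when dephosphorylated, had probes that disagreed widely. ILMN_3090825 read 6.30, 6.68, 6.80 and 6.70 in control testis and 5.36, 5.27, 5.49 and 5.37 in control spleen, a difference of 1.25 (SE 0.15). ILMN_2698282 read 6.03, 5.81, 5.63 and 6.19 and 7.60, 7.15, 7.55 and 7.74, a difference of -1.60 (SE 0.14). Testis was the highest tissue on the former probe and the lowest on the latter, with adjusted p of 2.83e-08 and 1.15e-10. The third probe, ILMN_3019002, gave 0.67 (SE 0.18) and was not called.

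Sf3b4, an SF3b subunit, was higher in testis on ILMN_3127739, at 7.03, 7.19, 7.26 and 7.27 against 4.78, 4.73, 5.31 and 5.14 in brain, a brain minus testis difference of -2.20 (SE 0.18). Its other probe, ILMN_3051392, was detected in no control testis and in 3 of 4 control brains, and gives no comparison with testis beyond a bound of at least 1.04-fold for brain. Hnrnpc was read as near equal in brain and testis by ILMN_1235470, at 11.86 ± 0.10 and 11.77 ± 0.07, and as different by ILMN_2511051, at 9.45 ± 0.10 and 7.03 ± 0.23, differences of 0.09 (SE 0.07) and 2.43 (SE 0.12). Srsf5, an SR protein, gave -1.003 (SE 0.28) on ILMN_2772274 and 0.28 (SE 0.15) on ILMN_3148662. Hnrnpk ILMN_2784821 gave 0.25 (SE 0.17) where the probe described above gave -1.44.

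**Figure D3:**
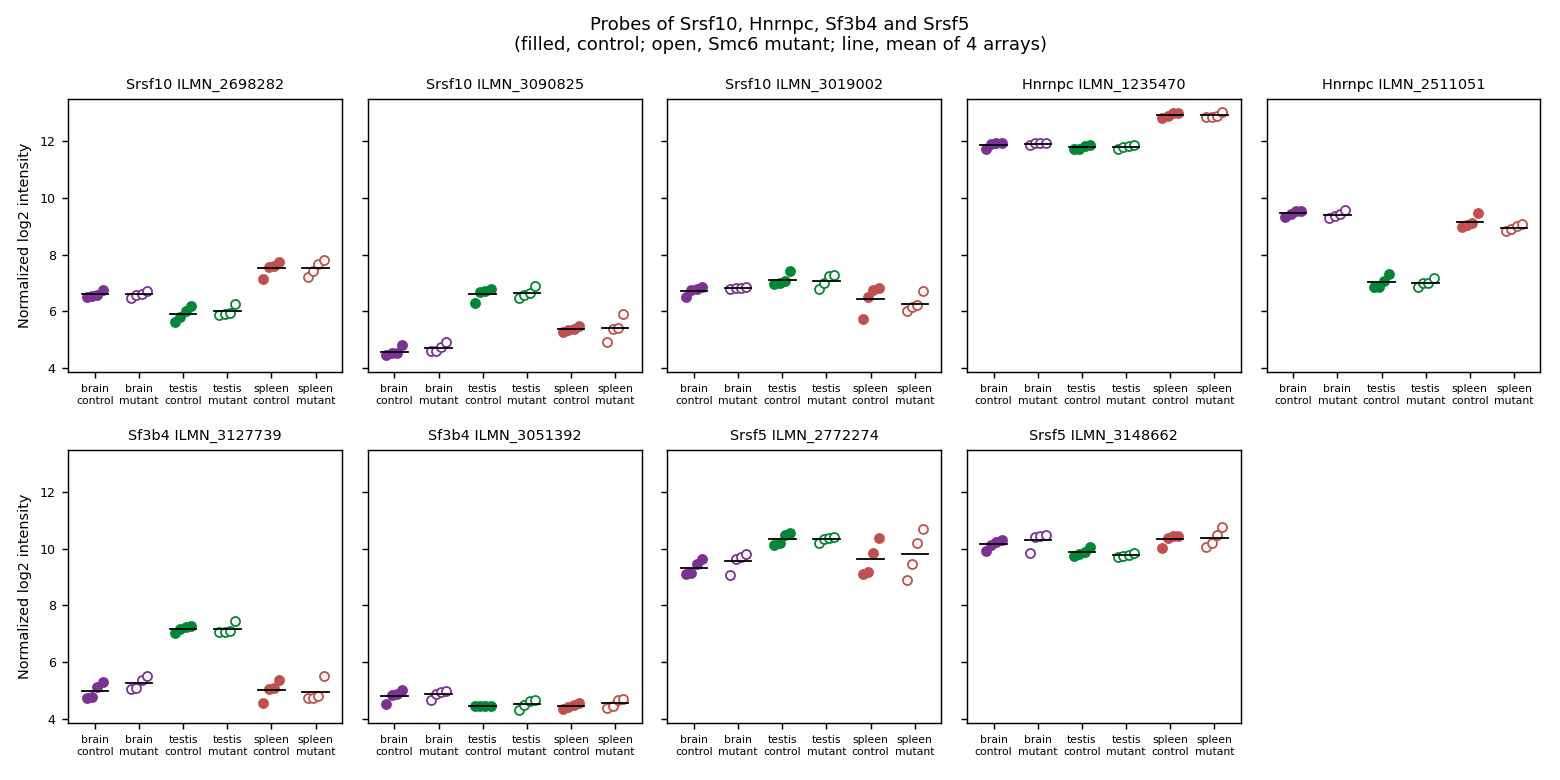
Normalized log2 intensity (y axis) of the probes of Srsf10, Hnrnpc, Sf3b4 and Srsf5 on all arrays by tissue and genotype (x axis), with 1 point per mouse, filled for control and open for mutant, and a line at the mean of 4. The Srsf10 probes put testis lowest on ILMN_2698282 and highest on ILMN_3090825, and the Hnrnpc probes put testis level with brain on ILMN_1235470 and below it on ILMN_2511051.

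Other splicing genes were read from a list of 134 spliceosome components and regulators outside the families. Of 171 tested probes, 38 were called higher and 25 lower in brain than in testis, 20 and 32 against spleen, and 15 and 48 in testis against spleen, counts that were taken under quantile normalization alone. These were 36.8%, 30.4% and 36.8% of the probes, each below the share of the whole array (50%, 39% and 48.1%). Elavl2 and Elavl3, neuronal RNA-binding proteins, were among the highest in brain, Elavl3 with 4.58 (SE 0.12) over testis and at least 20.5-fold over spleen. Rbmxl2, the germ cell form of hnRNP G, was at least 30.9-fold higher in testis than in brain and at least 26.4-fold higher than in spleen. The SR protein kinase gene Srpk2 was higher in testis than in brain and spleen, with brain minus testis at -3.46 (SE 0.12) and testis minus spleen at 4.49 (SE 0.12), whereas Srpk3 was at least 31.8-fold higher in spleen than in testis. Ptbp1, a repressor of neuronal exons, and its relative Ptbp3 were lower in brain than in spleen, Ptbp1 ILMN_3140788 by a difference of -3.03 (SE 0.10) and Ptbp3 by at least 10.4-fold. Rbm38 had brain minus spleen at -5.85 (SE 0.19) and -4.67 (SE 0.18) on the 2 probes detected on every control array.

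The mutant comparison asked whether splicing factor transcripts differed between Smc6 mutant and control mice within a tissue. With an adjusted p under 0.05 in limma's fit over all probes of the tissue, the calls were 0 of 72 members for testis, 0 of 73 for spleen and 0 of 78 for brain, against 0%, 0% and 0.0285% of the whole array. At an unadjusted p under 0.05 there were 3 members in testis (4.17% against 4.78% of all probes), 1 in spleen (1.37% against 1.74%) and 10 in brain (12.8% against 11.8%). Groups did not overlap for 1 of 72 members in testis (against 2.71% of all probes), 1 of 73 in spleen (1.33%) and 5 of 78 in brain (6.66%). A 95% interval that stayed inside 1.5-fold in either direction was found for 72 of 72 members in testis, 62 of 73 in spleen and 73 of 78 in brain, and inside 2-fold for all of those tested. The shares inside 1.5-fold were 100%, 84.9% and 93.6%, near the 96.8%, 82.5% and 95.6% of all probes. Inside 2-fold lay 99.7%, 98.6% and 99.8% of all probes in testis, spleen and brain.

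**Figure D4:**
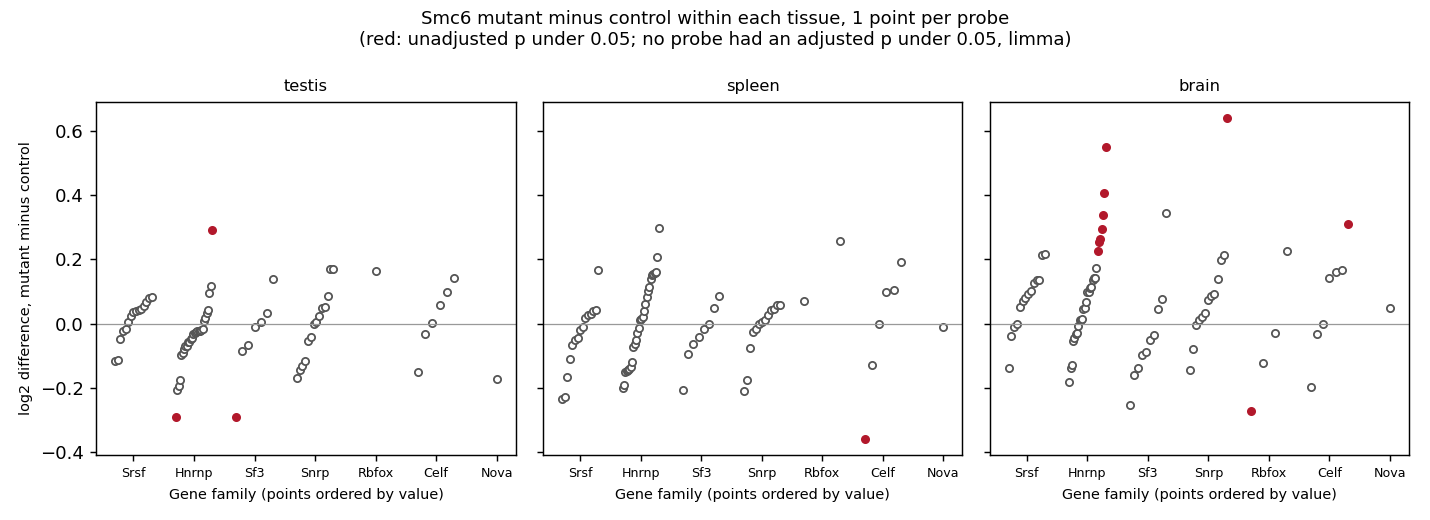
Log2 difference, mutant minus control (y axis), for each tested member probe by gene family (x axis) in testis, spleen and brain, with red for an unadjusted p under 0.05. Points lie between -0.36 and 0.64, and 10 of the 14 red points are in brain, 7 of them Hnrnp probes above 0.

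In brain the members with the smallest p were mostly hnRNP genes read higher in the mutants, without passing the adjusted threshold. Hnrnpk ILMN_1245987, on the scale of the brain arrays, read 8.95, 8.86, 8.79 and 8.50 in the mutants and 8.15, 8.44, 8.20 and 8.10 in the controls. Every mutant lay above every control, and the difference was 0.55 (SE 0.11) with an adjusted p of 0.109. It passed, as the sole member, when all 24 arrays were normalized together, at 0.59 with an adjusted p of 0.047. The second Hnrnpk probe, ILMN_2784821, gave -0.03 (SE 0.07).

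Snrpa, the U1 snRNP protein U1-A, read 8.47, 8.41, 8.56 and 8.72 in mutant brain and 7.37, 8.09, 8.06 and 8.07 in control brain on ILMN_1247582. The groups did not overlap, with 1 control far below the other 3, and the difference was 0.64 (SE 0.15) (adjusted p = 0.149). Without that array, control replicate 1, it was 0.46 (adjusted p = 0.185). The other probe of Snrpa, ILMN_2667509, gave 0.02 (SE 0.07). Hnrnph2, an X-linked relative of Hnrnph1, read 5.20, 5.23, 5.44 and 5.53 in mutants and 5.01, 4.70, 5.12 and 4.94 in controls, apart by 0.41 (SE 0.11) (adjusted p = 0.194). These readings were near background, with the probe detected on 3 of 4 control arrays. The other Hnrnph2 probe was detected on no array.

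Celf1 ILMN_1221266 read 7.71, 7.61, 7.55 and 7.28 in mutant brain and 7.19, 7.36, 7.13 and 7.23 in control brain, a difference of 0.31 (SE 0.10) (adjusted p = 0.259) with groups that overlapped. Hnrnph1 had 3 probes at an unadjusted p under 0.05, at 0.29, 0.26 and 0.25, and Hnrnpa2b1 ILMN_2615855 gave 0.34 (SE 0.12). The lower member with the smallest p was Rbfox2 ILMN_2670527, at 6.73, 7.03, 6.96 and 6.60 in mutants and 7.28, 7.15, 7.12 and 6.87 in controls, a difference of -0.27 (SE 0.11) (adjusted p = 0.385).

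Of the 10 brain members at an unadjusted p under 0.05, 9 were higher and 1 lower, against 6.37% of all probes higher and 5.46% lower. Hnrnp probes made up 7 of the 10, several of them from the 1 gene Hnrnph1, and 29 of the 78 members tested. Of these 29, 21 had a difference above 0, all 5 Hnrnph1 probes among them. These are counts of probes and not of genes. The median difference was 0.06 over the 78 members, 0.10 over the Hnrnp probes and -0.01 over all probes. The 4 mutant brain arrays were dimmer than the 4 controls, with upper quartiles of 145 to 162 against 169 to 189, so that brightness and genotype cannot be told apart there. With brightness as a covariate the median over members was 0.14 and 0 members passed. Leaving out mutant replicate 1 left 6 members at an unadjusted p under 0.05 and leaving out mutant replicate 4 gave 15.

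**Figure D5:**
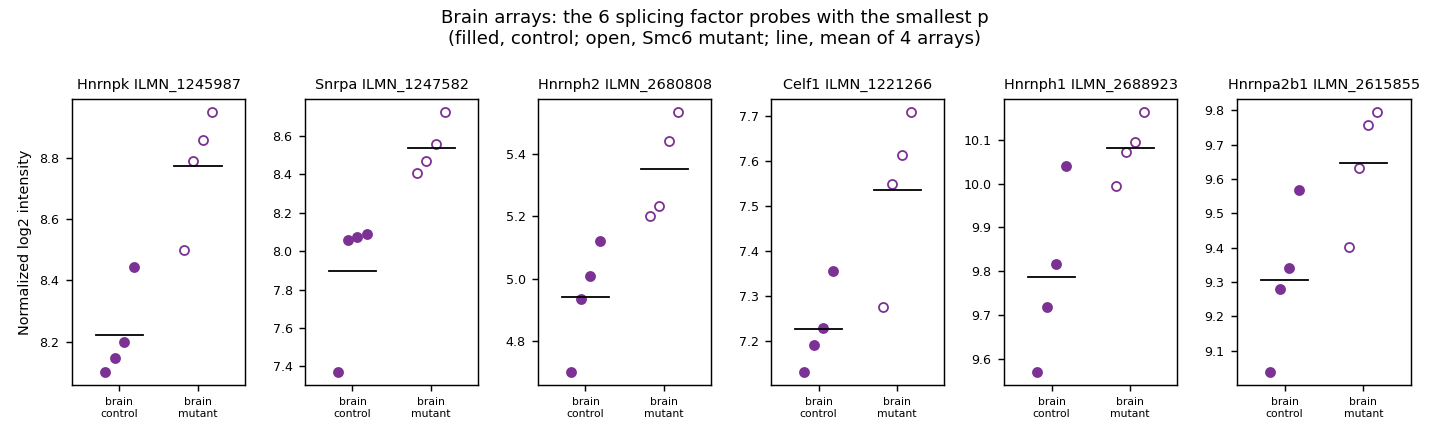
Normalized log2 intensity on the scale of the 8 brain arrays (y axis, a separate range in each panel) for the 6 members with the smallest p in brain, by genotype (x axis), with 1 point per mouse and a line at the mean of 4. Hnrnpk, Snrpa and Hnrnph2 have mutant points all above the control points, Hnrnph2 near background, and Celf1, Hnrnph1 and Hnrnpa2b1 overlap.

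In testis the smallest p among members belonged to Hnrnph3, a further G-run binder, which read 6.23, 6.08, 6.03 and 6.06 in mutants and 5.95, 5.87, 5.48 and 5.95 in controls. The groups did not overlap, and the difference was 0.29 (SE 0.11) with an adjusted p of 1.00. Sf3a2, a subunit of SF3a, gave -0.29 (SE 0.13) and Hnrnpul1 ILMN_2680490 gave -0.29 (SE 0.13), both with overlapping groups and adjusted p of 1.00. Both were near background. Sf3a2 was detected on 2 of 4 mutant arrays, and this Hnrnpul1 probe on 1 of 4 mutant and 3 of 4 control arrays. The other tested Hnrnpul1 probes gave -0.07 to 0.12. For the testis-high members the mutant minus control difference was -0.18 (SE 0.12) for Hnrnpf, -0.03 (SE 0.10) for Hnrnpll, -0.05 (SE 0.11) for Snrpc and 0.02 (SE 0.13) for Srsf10 ILMN_3090825.

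In spleen Celf2 ILMN_2594575 read 7.06, 7.53, 7.24 and 7.66 in mutants and 7.71, 7.85, 7.55 and 7.81 in controls, a difference of -0.36 (SE 0.15) with an adjusted p of 1.00. The groups overlapped, and the other Celf2 probe gave -0.13 (SE 0.13). Rbfox3 read 5.51, 5.26, 5.26 and 5.36 in mutants and 5.12, 4.80, 5.22 and 5.22 in controls, apart by 0.26 (SE 0.13) (unadjusted p = 0.0793). Without mutant replicates 1 and 2, which carried the pancreatic transcripts, the differences were -0.28 for Celf2 and 0.21 for Rbfox3, and 0 members were called.

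The difference of the mutant effect between tissues was tested as an interaction. No member was called in any pair of tissues: 0 of 67 for brain against testis (0% of all probes), 0 of 69 for brain against spleen (0%) and 0 of 68 for testis against spleen (0.0097%). At an unadjusted p under 0.05 there were 9 members for brain against testis (8.18% of all probes), 3 for brain against spleen (3.38%) and 3 for testis against spleen (2.5%). The smallest p belonged to Hnrnpk for brain against testis, at 0.51 (SE 0.15) with an adjusted p of 0.357. 

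Of the other splicing genes, 0 of 148 probes were called in testis, 0 of 141 in spleen and 0 of 153 in brain, with 5, 3 and 14 at an unadjusted p under 0.05. The latter were 3.38%, 2.13% and 9.15%, against 4.78%, 1.74% and 11.8% of all probes. In brain 1 of 3 probes of Clk4, a kinase of SR proteins, gave 0.61 (SE 0.12) (adjusted p = 0.117), and the others gave 0.08 and 0.08. Srrm4, which promotes neuronal microexons, gave -0.35 (SE 0.11) (adjusted p = 0.259) and -0.18 on its 2 probes. Txnl4a, a U5 snRNP protein, gave 0.04 to 0.28 on 4 probes, and Khsrp gave -0.25 (SE 0.07). In testis the smallest p values were those of 1 Tardbp probe, at -0.44 (SE 0.11), and of Scaf8, at -0.46 (SE 0.14), with adjusted p of 0.831 and 0.976. The other Tardbp probes gave -0.15 and -0.19.

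Of the 19 member probes that entered no comparison between tissues, 14 were detected on no array. For Celf3, Hnrnpd, Hnrnpr, Hnrnpu, Snrpb2 and Snrpe no probe was tested, so that nothing can be said of these genes here. The other untested probes belonged to genes with a tested probe, among them Hnrnpa3, Nova2, Rbfox1 and Rbfox3.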

How the data were processed

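Total RNA of 24 mouse tissue samples was measured on Illumina bead arrays. Per the file headers, the deposited intensity values were not normalized, each paired with a p-value of detection, and were background-subtracted as far as the values below 0 show. GenomeStudio 2011.1 is named in the submitters' processing notes. The authors also deposited a table of normalized intensity values, whose method is not given in the sources used here; it served as an alternative, on a log2 scale with a floor of 16.

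The intensities were corrected and quantile normalized with neqc in limma 3.58.1 (R 4.3.3, offset 16), for each tissue alone in the mutant comparisons and over all 24 arrays between tissues. Probes were kept with a detection p under 0.05 on at least 4 of the 8 arrays of a tissue, or of the 24. Differences were fitted with lmFit and eBayes on every kept probe, on the log2 scale, with Benjamini-Hochberg adjustment over all of them. A fold given as "at least" compares the mean of the detected group with the lowest signal among detected probes (or the probe's own, where higher) on the arrays of the other group. The number of arrays, 4 a group, limits the precision. Script results were checked on simulated data. No slide or scan date is given in the sources used here, so batches were not examined.

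Gene names came from the platform's annotation. Every probe was tied to the families by symbol; all sample columns were mapped through the labels. Named genes were all Rbfox, Celf and Nova probes, the other members with the largest called differences of their family or the smallest p in a mutant comparison, and genes whose probes disagreed. The members and lists were chosen with earlier results of these data known. Testis and spleen arrays pair by mouse identifier; same-animal deviations correlated at -0.024 to 0.163. Alternatives covered normalization, detection filter, single arrays left out, blocks by animal or replicate number, +/+ controls alone, the arrays with pancreatic transcripts left out and array brightness as a covariate.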

Additional observations from a re-analysis of the deposited data

Results flagged for a closer look

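Of 353 group tests on 67 named probes, 26 put the highest or lowest of 4 arrays far from the other 3 by Dixon's test. Chance alone flags about 1 in 20 such groups. All values are log2 levels on the scale of the 24 arrays, and no explanation was tested. In control brain the values standing apart were Snrpb ILMN_1223667 at 7.22 in replicate 4, above the other 3 arrays at 6.62 to 6.69, and Snrpa ILMN_1247582 at 6.87 in replicate 1, below the other 3 arrays at 7.57 to 7.60. In mutant spleen the values standing apart were Hnrnpc ILMN_1235470 at 13.02 in replicate 3, above the other 3 arrays at 12.85 to 12.87, and Srsf1 ILMN_2591814 at 12.02 in replicate 3, above the other 3 arrays at 11.96 to 11.97. Also in mutant spleen the value standing apart was Srsf1 ILMN_3142235 at 11.43 in replicate 4, below the other 3 arrays at 11.74 to 11.76. In mutant brain the values standing apart were Hnrnpc ILMN_1235470 at 11.87 in replicate 1, below the other 3 arrays at 11.92 to 11.92, and Snrpn ILMN_1247894 at 13.55 in replicate 3, below the other 3 arrays at 13.63 to 13.63. Also in mutant brain the values standing apart were Hnrnpab ILMN_2612423 at 11.57 in replicate 2, above the other 3 arrays at 11.48 to 11.49, and Rbfox3 ILMN_3110132 at 12.68 in replicate 4, above the other 3 arrays at 12.21 to 12.26. Also in mutant brain the value standing apart was Srsf5 ILMN_3148662 at 9.84 in replicate 4, below the other 3 arrays at 10.40 to 10.49. In mutant testis the values standing apart were Snrpb ILMN_1239922 at 9.34 in replicate 1, below the other 3 arrays at 9.45 to 9.47, and Snrpn ILMN_1247894 at 8.48 in replicate 4, above the other 3 arrays at 8.32 to 8.34. Also in mutant testis the values standing apart were Sf3a1 ILMN_2630730 at 8.95 in replicate 2, below the other 3 arrays at 9.08 to 9.09, and Hnrnpul1 ILMN_2688427 at 5.41 in replicate 4, below the other 3 arrays at 6.05 to 6.12. Also in mutant testis the values standing apart were Hnrnpdl ILMN_2690061 at 7.30 in replicate 4, below the other 3 arrays at 7.56 to 7.59, and Hnrnpf ILMN_2829171 at 8.78 in replicate 1, below the other 3 arrays at 8.95 to 8.97. Also in mutant testis the value standing apart was Sf3b4 ILMN_3127739 at 7.45 in replicate 3, above the other 3 arrays at 7.07 to 7.12. In control testis the values standing apart were Snrpa ILMN_1247582 at 7.93 in replicate 3, above the other 3 arrays at 7.69 to 7.69, and Srsf1 ILMN_2591814 at 10.47 in replicate 3, above the other 3 arrays at 10.33 to 10.35. Also in control testis the values standing apart were Srsf6 ILMN_2611728 at 7.88 in replicate 1, above the other 3 arrays at 7.65 to 7.67, and Hnrnpul1 ILMN_2680490 at 4.47 in replicate 2, below the other 3 arrays at 5.02 to 5.12. Also in control testis the values standing apart were Hnrnpf ILMN_2829171 at 9.44 in replicate 3, above the other 3 arrays at 8.92 to 9.00, and Hnrnph3 ILMN_2958912 at 5.56 in replicate 3, below the other 3 arrays at 5.97 to 6.05. In control spleen the values standing apart were Srsf3 ILMN_2733398 at 6.85 in replicate 2, below the other 3 arrays at 7.35 to 7.45, and Sf3b6 ILMN_2952292 at 6.37 in replicate 2, above the other 3 arrays at 6.02 to 6.05. Also in control spleen the value standing apart was Srsf5 ILMN_3148662 at 10.03 in replicate 4, below the other 3 arrays at 10.38 to 10.44.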

How the results depend on the processing

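Of 153 recomputed counts of called splicing factor probes, 151 stayed within 1.5 times the count reported. For every mutant and interaction comparison the count reported was 0, so that staying there means only that 0 remained 0. The counts are also totals that ignore direction, and the splits between higher and lower turned under median scaling, as given above. With all 24 arrays normalized together, 1 member passed between mutant and control brain, Hnrnpk, and with median scaling 17 members were called between brain and spleen, 11 of them shared with the 26 reported; the cause was not tested. Leaving out single arrays gave 33 to 36 calls between brain and testis, 25 to 29 between brain and spleen, 34 to 38 between testis and spleen, and 0 to 0 in every mutant and interaction comparison. The replicate block, whether by number within a tissue or by animal between tissues, changed no call; the correlation within animals was 0.00913 between tissues.

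Among named probes 2555 values kept their direction and their side of the threshold, 43 no longer passed it, 9 newly passed it and 13 turned sign. With array brightness as a covariate, Sf3b3 in brain turned to 0.098 between mutant and control. Median scaling turned Srsf10 ILMN_3019002 to 0.015 between brain and testis, Celf1 to 0.14 (ILMN_1221266), -0.17 (ILMN_2726496), 0.010 (ILMN_2667972) and 0.0096 (ILMN_2667971) between brain and spleen, and Rbfox2 ILMN_1222770 to -0.024 between testis and spleen. On mutant arrays Celf1 ILMN_2726496 turned to -0.14 between brain and spleen, Celf1 ILMN_1221266 to -0.12 between testis and spleen and Nova2 to -0.091 there. Over single arrays left out, the testis minus spleen difference ran from -0.019 (without spleen control replicate 2) to 0.20 for Nova2, and for Rbfox2 ILMN_1222770 from -0.047 (without spleen control replicate 1; -0.020 without testis control replicate 2) to 0.14. The adjusted p of Hnrnpk in brain ran from 0.047 to 0.659 (limma) over the alternatives. Probes near background carry little information on small differences. Among them are Rbfox2 ILMN_1222770, set aside above for testis against spleen, and Celf1 ILMN_2726496, detected on 4 of the 24 arrays. Their turns are counted in the 13 and tell nothing of these genes.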
